A study of Rattus norvegicus with 3 samples.

Results

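The 7 genes described here encode muscle actins and actin-binding proteins of smooth muscle, and their messenger RNA was followed in cultured ventricular myocytes of newborn rats. The actins were Acta1 (skeletal α-actin), Actc1 (cardiac α-actin), Acta2 (smooth muscle α-actin) and Actg2 (smooth muscle γ-actin). The binding proteins were calponin 1 (Cnn1), transgelin (Tagln) and synaptopodin 2 (Synpo2). The genes were chosen by name, with earlier results of these data known. Their values were taken from every probe set whose annotation gave 1 gene symbol among them. Of the 7 genes, 6 were found, with 8 probe sets among the 12783 on the array that carried 1 gene symbol. Actc1 had no probe set of its own, because the 3 probe sets that name it also name Acta2.

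The study held 3 rat expression arrays, each hybridised with total RNA from myocytes kept in culture for 48 h. The unstimulated cells had no added agent per the labels, and the other cultures held 20 µM phenylephrine or 1 µM PAMH. Phenylephrine is an α1-adrenergic agonist that makes cultured cardiac myocytes grow, and PAMH is a compound that the labels name only by that code, beside the keywords pyridine and 5-hydroxytryptamine. Each group had 1 array, and the labels give no strain, number of animals or count of cultures. No ratio below therefore has a replicate error or a p-value.

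Actin is the protein of the thin filament in muscle and of the microfilaments in every cell. The α-skeletal and α-cardiac forms make the thin filaments of striated muscle, the smooth muscle α-form is that of blood vessels and the smooth muscle γ-form that of the gut, and the developing heart makes skeletal and smooth muscle α-actin beside the cardiac form. Calponin and transgelin bind and stabilise actin filaments, and synaptopodin 2 bundles them at the Z-disc. Many of these genes are textbook targets of serum response factor, which binds the CArG box, a short element rich in A and T, together with coactivators of the myocardin family.

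The stretches before the start sites are shown for the α-actin genes, which are known for CArG boxes, and for Cnn1, the member with the highest ratio to the unstimulated array. RefSeq sequences on the GRCr8 build were found for 6 of the 7 genes. Each line gives the 250 bases before the annotated start, on the strand of the gene, and capitals mark each CArG box or stretch that differs from one at 1 base. The Acta1 stretch is chr19:68784195-68784444, minus strand, that of Acta2 is chr1:241172504-241172753, minus strand, that of Actc1 is chr3:121271828-121272077, minus strand, and that of Cnn1 is chr8:28908187-28908436, plus strand.
Acta1: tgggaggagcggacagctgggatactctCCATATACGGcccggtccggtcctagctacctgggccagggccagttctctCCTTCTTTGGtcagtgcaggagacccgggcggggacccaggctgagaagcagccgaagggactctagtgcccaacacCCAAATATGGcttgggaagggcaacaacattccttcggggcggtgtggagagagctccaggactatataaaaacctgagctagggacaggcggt
Acta2: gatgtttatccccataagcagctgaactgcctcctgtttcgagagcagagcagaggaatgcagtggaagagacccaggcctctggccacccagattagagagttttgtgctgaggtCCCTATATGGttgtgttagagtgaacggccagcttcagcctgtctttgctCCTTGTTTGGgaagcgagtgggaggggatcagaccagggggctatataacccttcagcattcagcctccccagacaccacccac
Actc1: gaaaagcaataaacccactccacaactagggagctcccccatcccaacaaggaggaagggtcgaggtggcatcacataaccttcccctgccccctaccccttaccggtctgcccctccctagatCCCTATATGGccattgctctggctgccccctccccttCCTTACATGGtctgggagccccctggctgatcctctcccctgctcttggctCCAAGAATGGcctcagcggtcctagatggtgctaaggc
Cnn1: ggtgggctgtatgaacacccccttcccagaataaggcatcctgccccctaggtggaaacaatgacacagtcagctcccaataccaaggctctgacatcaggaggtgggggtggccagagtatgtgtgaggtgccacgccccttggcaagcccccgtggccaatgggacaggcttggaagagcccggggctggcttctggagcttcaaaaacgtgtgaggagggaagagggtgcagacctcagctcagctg

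Acta1 had a complete CArG box, CCAAATATGG, from 94 to 85 bases before its start, and 2 stretches that differ from one at 1 base. The motif reads the same on both strands. Acta2 had no complete box and 2 such stretches, CCCTATATGG from 134 to 125 bases and CCTTGTTTGG from 84 to 75 bases before its start. Actc1 also held the stretch CCCTATATGG, from 126 to 117 bases before its start, and 2 others. Neither form was found in these windows of Cnn1 and Synpo2. Among 27455 RefSeq windows of the same length, 1.5% held a complete box and 18.6% held a box with at most 1 base different. The motif CATTCC, searched on both strands, was found once each before Acta1 and Acta2 and in 11.8% of all windows, and TATAAA, also on both strands, before Acta1 but not before Acta2, Actc1, Cnn1 or Synpo2 and in 13.1% of all windows. The Actg2 window lies 10340 bases inside the span that the gene table gives for Actg2, so no match in it is reported. A match describes letters only, and no binding was measured.

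The deposited intensities were brought to a common median, and the scaled values are given throughout. Ratios are given only for pairs of arrays that both reached an intensity of 76.0, a floor set at percentile 40 of all scaled values. Before scaling, the median intensity without control probe sets stood at a log2 value of -0.13 (phenylephrine) and -0.15 (PAMH) relative to the unstimulated array, and all ratios are relative to that shift. The 6 genes with a probe set of their own were above the floor on all 3 arrays. Probe sets of 1 gene differed from each other in the log2 ratio with an SD of 0.27 for phenylephrine and 0.29 for PAMH, a technical spread that holds no variation between cultures.

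Relative to unstimulated myocytes, 5 of the 6 measured genes were at least 1.5-fold higher on the phenylephrine array and none was 1.5-fold lower. Of all 6571 genes with a ratio in this comparison, the share past 1.5-fold was 8.9% upwards and 4.54% downwards. On the PAMH array 4 of the 6 were at least 1.5-fold higher and 1 was lower, against 9.31% and 4.17% of 6549 genes. At 2-fold, 4 of the 6 were higher and none lower with phenylephrine, beside 2.62% and 0.761% of all genes, and 4 were higher and 1 lower with PAMH, beside 2.05% and 0.794%. These background shares move with the scaling, and on the deposited values they were 5.98% higher and 7.83% lower with phenylephrine and 5.33% and 7.84% with PAMH. The median log2 ratio of the 6 genes was 1.19 for phenylephrine and 1.21 for PAMH, beside 0.07 and 0.10 over all genes. The unstimulated array is the denominator for both compounds, so any deviation of that array enters both sets of ratios. Because the genes were picked with earlier results known, the shares over all genes give a scale for these counts and no test.

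**Figure D1:**
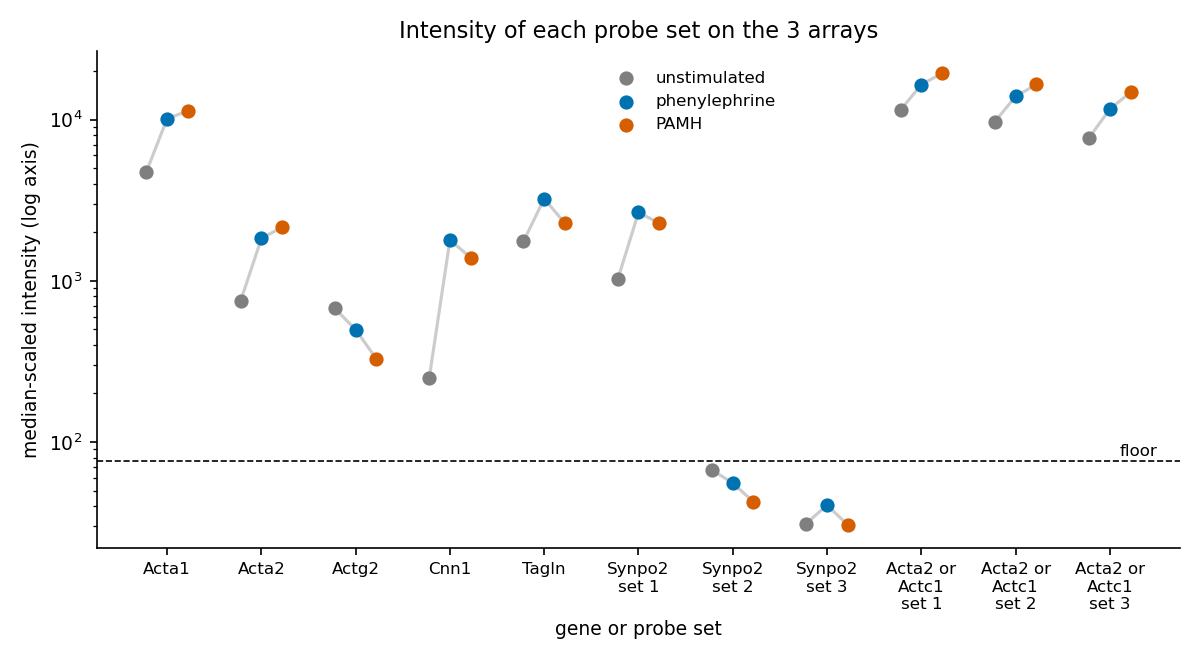
Median-scaled intensity (log axis) of each probe set on the unstimulated (grey), phenylephrine (blue) and PAMH (orange) arrays, 1 array each, with the floor of 76.0 as a dashed line. Acta1, Acta2, Cnn1, Tagln and Synpo2 set 1 are higher on both treated arrays, Actg2 is lower on both, and Synpo2 sets 2 and 3 lie below the floor.

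Among the actins, Acta1, the skeletal α-actin of fetal and stressed heart, had an intensity of 4755 on the unstimulated array, 10153 with phenylephrine and 11328 with PAMH (probe set 1369928_at). Both treated arrays were more than 2-fold above the unstimulated one, at 2.14-fold and 2.38-fold. Bright genes had higher ratios in general. In the brightest of 10 equal classes of genes by mean signal, the median log2 ratio was 0.24 with phenylephrine, and with PAMH it was 0.32. The log2 ratio of Acta1 with phenylephrine, 1.09, was below percentile 95 of that class (1.24), and its ratio with PAMH, 1.25, was above it (1.13). After quantile normalization the log2 ratio of Acta1 was 0.80 with both compounds.

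Acta2, the α-actin of vascular smooth muscle and of myofibroblasts, was measured on its own by 1 probe set (1370857_at), with 752 on the unstimulated array, 1834 with phenylephrine and 2151 with PAMH. These values were 2.44-fold and 2.86-fold above the unstimulated array. Its log2 ratio of 1.29 for phenylephrine ranked 82nd of 6571 genes and that of 1.52 for PAMH ranked 32nd of 6549. Both were above percentile 95 of the brightest class.

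The cardiac α-actin could not be read apart from Acta2. The 3 probe sets whose annotation names both genes had intensities of 11492, 9722 and 7736 on the unstimulated array, 16510, 13947 and 11621 with phenylephrine, and 19409, 16559 and 14823 with PAMH. All 3 were higher on both treated arrays, from 1.43-fold to just past 1.5-fold with phenylephrine and from 1.69-fold to 1.92-fold with PAMH. Each of these ratios was below that of the Acta2 probe set in the same comparison. These probe sets lie near the top of the scale, where the highest deposited value of any probe set was 12945 on the unstimulated array, 16601 with phenylephrine and 18780 with PAMH, and the first of them had deposited values of 12266, 16135 and 18608. Quantile normalization, which gives equal values to equal ranks, left the first at a log2 ratio of 0 in all comparisons. Saturation marks were not used here.

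Actg2, the γ-actin of visceral smooth muscle, went the other way (probe set 1386869_at). Its intensity was 674 on the unstimulated array, 498 with phenylephrine and 328 with PAMH. It was lower on both treated arrays, by 1.35-fold with phenylephrine, which is under 1.5-fold, and by 2.06-fold with PAMH. With PAMH its ratio ranked 47th from the lowest of 6549 measured genes, and 5th from the lowest of the 655 in its own signal class. With an offset of 50 added to each value the PAMH log2 ratio of -1.04 became -0.94, below 2-fold.

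The non-muscle actins lay near the unstimulated level. Actg1, the cytoplasmic γ-actin, had 5069, 5147 and 5062 on the unstimulated, phenylephrine and PAMH arrays, with log2 ratios of 0.02 and -0.00. Its phenylephrine ratio had no settled direction, since it ranged from -0.35 to 0.02 over the settings tried, and its PAMH ratio went down to -0.41. Actb, the cytoplasmic β-actin, could be read only from control probe sets, whose log2 ratios were 0.12, 0.38 and 0.11 with phenylephrine, then 0.07, 0.23 and -0.03 with PAMH for the 3′, 5′ and middle sets. On the deposited values 2 of these 3 ratios were below 0 in each comparison, at -0.01 and -0.02 with phenylephrine and -0.08 and -0.18 with PAMH. Dividing the 3′ by the 5′ set, a sign of RNA integrity, gave 1.72 on the unstimulated array, 1.44 with phenylephrine and 1.54 with PAMH, and its part in the actin ratios was not tested.

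**Figure D2:**
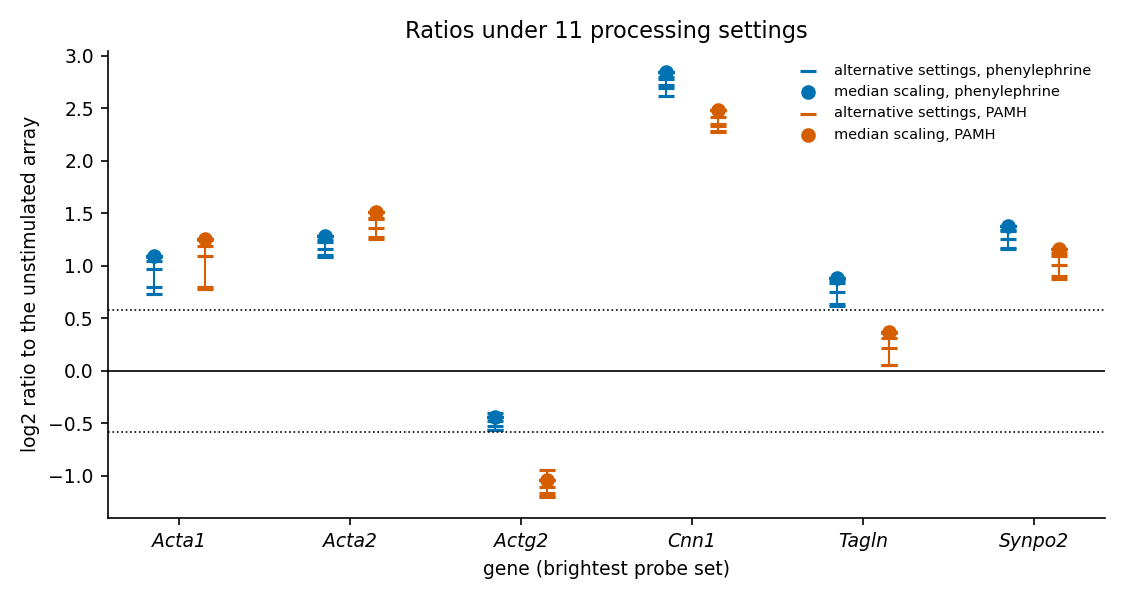
Log2 ratio to the unstimulated array of the 6 measured genes with phenylephrine (blue) and PAMH (orange), by median scaling (points) and 10 alternative settings (dashes, joined by a line), with 1.5-fold as dotted lines. Each gene keeps its side of 0, and Tagln with PAMH comes closest to it, at 0.05 after quantile normalization. The floors and probe set rules leave every ratio unchanged.

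Of the actin-binding genes, Cnn1 had the highest ratios. Calponin 1 is a marker of contractile smooth muscle that is also made in the embryonic heart. Its intensity was 249 on the unstimulated array, 1793 with phenylephrine and 1395 with PAMH (probe set 1367785_at). The treated arrays were 7.20-fold and 5.60-fold above the unstimulated array, the third highest ratio of 6571 genes with phenylephrine and the second highest of 6549 with PAMH. The log2 ratios of 2.85 and 2.48 stayed at or above 2.62 and 2.27 over the settings tried.

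Synpo2 had an intensity of 1021 on the unstimulated array, 2657 with phenylephrine and 2284 with PAMH by its brightest probe set (1371679_at). These values were 2.60-fold and 2.24-fold above the unstimulated array, and both were above percentile 95 of the brightest class of genes. After quantile normalization and cyclic loess the PAMH log2 ratio was 0.91 and 0.88, below 2-fold. The other two probe sets of Synpo2 lay below the floor on all 3 arrays, with 67.0, 55.7 and 42.5 for 1 and 31.2, 40.6 and 30.6 for the other, in the order unstimulated, phenylephrine and PAMH. The ratio of Synpo2 thus rests on 1 probe set, and the others give no ratio.

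Tagln, which encodes transgelin or SM22, an early marker of smooth muscle that the embryonic heart also makes, had 1755 on the unstimulated array, 3238 with phenylephrine and 2276 with PAMH (probe set 1367570_at). It was 1.84-fold higher with phenylephrine and 1.30-fold higher with PAMH, which is under 1.5-fold. The PAMH log2 ratio of 0.37 was close to the median of the brightest class, 0.32, and after quantile normalization it was 0.05. The phenylephrine log2 ratio of 0.88 was below percentile 95 of that class and became 0.61 after quantile normalization.

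The arrays of the 2 compounds were set against each other without matched doses, so their ratio describes those arrays. None of the 6 genes was at least 1.5-fold higher with PAMH than with phenylephrine, where 1.93% of 6593 genes were, and 1 was at least 1.5-fold lower, where 2.67% were. None was past 2-fold in either direction, where 0.197% of genes were higher and 0.364% lower. That gene was Actg2, with a log2 ratio of -0.60, or 1.52-fold, which was -0.54 and under 1.5-fold with an offset of 50. Tagln followed at -0.51 and Cnn1 at -0.36, Synpo2 lay at -0.22, and the α-actins lay on the other side of 0, Acta1 at 0.16 and Acta2 at 0.23. After quantile normalization Acta1 had 0.00. The SD between probe sets of 1 gene was 0.23 in this comparison, so the ratios of Acta1 and Synpo2 lay within 1 SD of 0 and that of Acta2 just past 1 SD. This SD holds no variation between cultures and does not show which genes differ. The brightest class, which holds these genes, had a median log2 ratio of 0.08.

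**Figure D3:**
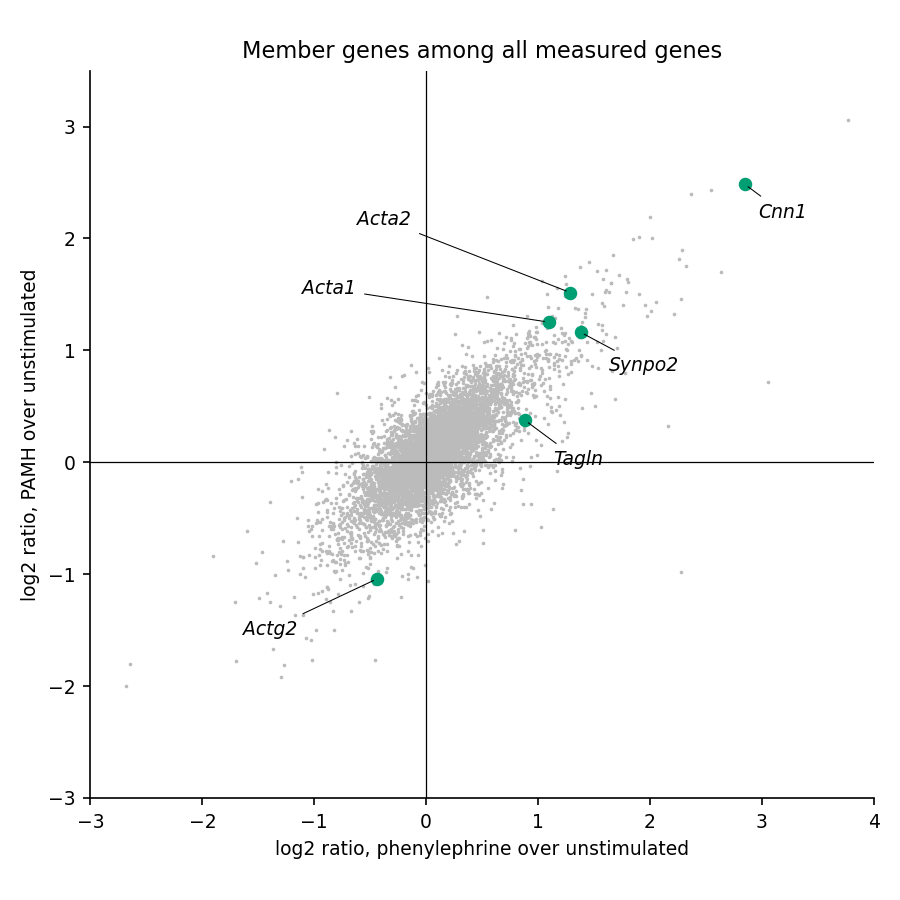
Log2 ratio to the unstimulated array with phenylephrine (x axis) and with PAMH (y axis) for all genes measured in both comparisons (grey points) and the 6 named members (green). Cnn1 lies at the far upper right and Actg2 at the lower left, and both axes share the unstimulated array.

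The genes with the pattern most like each member were found by the distance between their pairs of log2 ratios, over 4825 genes above the floor on all arrays with a mean signal above percentile 60. Each pattern holds only 3 arrays. Apart from those of Cnn1, the distances were below the SD between probe sets of 1 gene (0.27 and 0.29). They therefore do not settle which genes are nearest. For Acta1 these were Zyx, which encodes the focal adhesion protein zyxin, Ehd4 and the transferrin receptor gene Tfrc, at distances of 0.06 each. For Acta2 they were Synpo2l, the muscle paralog of Synpo2 (distance 0.06), Myh1 (0.08) and Aif1l (0.13). The Myh1 probe set had log2 ratios of 1.25 and 1.59, but over its probe sets and settings the values went down to -0.75 and -0.63. Aif1l was near the floor on the unstimulated array, at 91.0.

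For Actg2 the nearest genes were Col3a1, which encodes a fibrillar collagen (distance 0.03), Lum, which encodes the matrix proteoglycan lumican (0.04), and Tmtc1 (0.07). For Synpo2 they were the integrin gene Itga6 and Des, which encodes the intermediate filament protein desmin (0.04 each), and Lmcd1 (0.06). For Tagln they were Vasp, which encodes a promoter of actin filament growth, and Lgals3, which encodes galectin 3 (0.06 each), then Creb3 (0.08). Cnn1 ranked 3rd of 6571 genes with phenylephrine and 2nd of 6549 with PAMH, where few other genes lie. Its nearest genes were therefore further off, namely Snap91 (0.30), Ildr2 (0.49) and the atrial light chain gene Myl4 (0.81).

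Of the paralogs of the binding genes, Synpo2l was highest against the unstimulated array. It had 1192, 2810 and 3344 on the unstimulated, phenylephrine and PAMH arrays, with log2 ratios of 1.24 and 1.49. Synpo, which encodes the synaptopodin of kidney and neurons, had a log2 ratio of 0.86 for phenylephrine and -0.15 for PAMH by its brighter probe set, with an unstimulated intensity of 101 near the floor, and a second set did not reach the floor on that array. That second set did not differ between the compounds, at -0.00, where the first had -1.01. Cnn2, the calponin of non-muscle cells, had 521, 687 and 775 with log2 ratios of 0.40 and 0.57. Cnn3, the acidic calponin, had 958, 863 and 719 with log2 ratios of -0.15 and -0.41. Tagln2 had 886, 1173 and 996 with 0.40 and 0.17, the latter turning to -0.05 under another setting, and Tagln3 was below the floor on all 3 arrays. Of the 6 measured genes among these and Actg1, 2 were past 1.5-fold upwards with phenylephrine and 1 with PAMH. None was 1.5-fold lower. Over all genes 8.9% and 9.31% were higher, and 4.54% and 4.17% lower. The median log2 ratios of the 6 genes were 0.40 and 0.08. The PAMH median ranged from -0.10 to 0.17 over the settings tried and so had no settled direction, and the number lower ranged from 0 to 1.

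Other smooth muscle contractile genes were divided. Of 14 measured with phenylephrine, 4 were past 1.5-fold upwards and none downwards, and the median log2 ratio was 0.22. With PAMH, 4 of 12 were higher and 2 lower. Over all genes 8.9% were higher and 4.54% lower with phenylephrine, and 9.31% and 4.17% with PAMH. The PAMH median of 0.36 ranged from -0.19 to 0.48 over the settings tried and so had no settled direction, and the number lower ranged from 0 to 5. Csrp1, which encodes a LIM protein of smooth muscle, had log2 ratios of 1.61 with phenylephrine and 1.15 with PAMH, and Des had 1.36 and 1.12. The regulatory light chain gene Myl9 had 0.97 and 0.64, the latter 0.28 in the lowest setting and so under 1.5-fold, and Tgfb1i1, which encodes a focal adhesion LIM protein, had 0.97 and 0.96. Between the compounds the genes furthest from 0 were Mustn1 (-0.77), Myh11 (-0.66) and Csrp1 (-0.46), all lower with PAMH.

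Genes of actin filament assembly and crosslinking were measured for 34 of 42 listed. With phenylephrine 11 were at least 1.5-fold higher and 2 lower (median log2 ratio 0.22), and with PAMH 12 were higher and 3 lower. Past 1.5-fold were 8.9% of all genes upwards and 4.54% downwards with phenylephrine, and 9.31% and 4.17% with PAMH. The PAMH median of 0.14 turned to -0.02 in the lowest setting, and the settings gave from 6 to 12 higher and from 2 to 6 lower with PAMH, and from 8 to 11 higher with phenylephrine. Furthest from 0 with phenylephrine were Msn, which encodes moesin (1.36), the cofilin gene of muscle Cfl2 (1.33) and the α-actinin gene Actn1 (1.27). With PAMH they were Cfl2 (1.38), the filament bundling gene Pls3 (-1.21) and Zyx (1.20). Between the compounds they were Pls3 (-0.69), Actn1 (-0.48) and Msn (-0.46).

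Serum response factor itself, Srf, had 722, 833 and 918 on the unstimulated, phenylephrine and PAMH arrays, with log2 ratios of 0.21 and 0.35. The list it belongs to also holds targets and other regulators, but no myocardin-family coactivator with a ratio to the unstimulated array. Of its 19 measured genes, 5 were at least 1.5-fold higher with each compound, beside 8.9% and 9.31% of all genes. With phenylephrine 1 was lower, the kinase gene Rock1 at -0.67, and with PAMH none, beside 4.54% and 4.17%. The median log2 ratios of the 19 genes, 0.11 and 0.13, turned to -0.02 in the lowest setting. The settings gave from 3 to 7 genes higher with phenylephrine and from 3 to 6 with PAMH. Fhl1, a LIM protein gene of the sarcomere, had 1.67 and 1.85, Tgfb1i1 0.97 and 0.96, Filip1l 0.86 and 0.63 (0.48 in the lowest setting, under 1.5-fold), and the cardiac transcription factor gene Nkx2-5 0.71 and 0.84. The coactivator gene Mrtfa did not reach the floor on the unstimulated array, at 62.1, and lay at 105 and 97.0 on the treated arrays. Between the compounds no gene of this list was 1.5-fold apart, and Egr1 (0.30), Filip1l (-0.22) and Fhl2 (0.22) were furthest from 0.

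**Figure D4:**
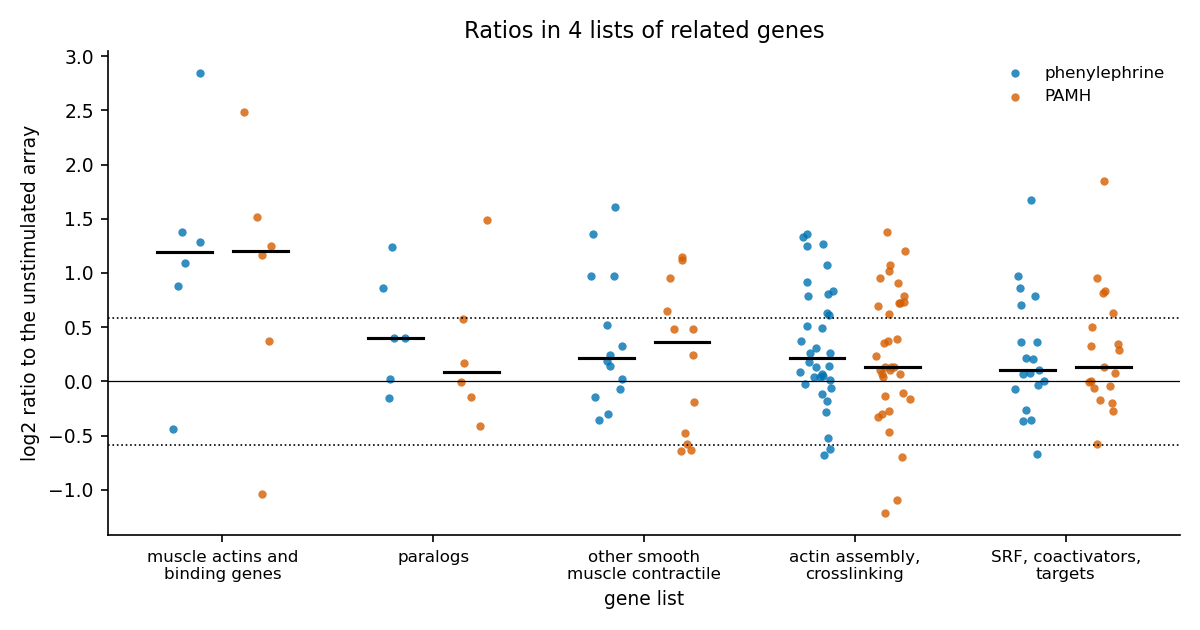
Log2 ratio to the unstimulated array with phenylephrine (blue) and PAMH (orange) of the 6 measured members and of 4 lists of related genes, each point 1 gene, with the median as a black bar and 1.5-fold as dotted lines. The members' medians are 1.19 and 1.21, and those of the 4 lists lie between 0.08 and 0.40 by median scaling. The PAMH median of each list was below 0 in the lowest of the settings tried. So was the phenylephrine median of the serum response factor list.

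Markers of cell types gave the setting for these values. All 10 markers of cardiac myocytes were above the floor on all arrays, with a summed intensity of 65422, 85016 and 100987 on the unstimulated, phenylephrine and PAMH arrays. The members differed, since Nppa, the natriuretic peptide gene, had 7516, 16987 and 19589, while with phenylephrine Myh6, Tnni3, Pln and Ryr2 had log2 ratios from -0.27 to -0.02. The median of the 10 log2 ratios was 0.15 with phenylephrine, with no settled direction (-0.19 to 0.15 over the settings), and 0.53 with PAMH (0.01 to 0.53). Of 6 smooth muscle markers with a probe set, Lmod1, Itga8 and Kcnmb1 were below the floor on all arrays, and the sum was 770, 785 and 560. Myh11, the myosin heavy chain that defines mature smooth muscle, was above the floor at 278, 282 and 178, with log2 ratios of 0.02 and -0.64, the first of them down to -0.11 on the deposited values. Smtn, which encodes smoothelin, had 200, 156 and 175. Ppp1r14a had 134, 159 and 68.5, the last below the floor. Myh11 and Smtn were not 1.5-fold higher on either treated array, and Ppp1r14a was not with phenylephrine and had no PAMH ratio. Of the smooth muscle members, Cnn1, Acta2 and Synpo2 were past 1.5-fold upwards with both compounds. Tagln was so with phenylephrine alone, and Actg2 was lower on both treated arrays. The wider smooth muscle list, which also holds Myh11, had 4 of 14 genes at least 1.5-fold higher with phenylephrine and 4 of 12 with PAMH. Over all genes the shares were 8.9% and 9.31%. None was lower with phenylephrine and 2 were with PAMH, Myh11 among them, beside 4.54% and 4.17%. The number lower with PAMH ranged from 0 to 5 over the settings. The part of smooth muscle cells in these ratios was not tested.

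Most fibroblast markers were, like Actg2, lower on both treated arrays. Their summed intensity over 10 genes was 9538 on the unstimulated array, 7329 with phenylephrine and 5677 with PAMH. Of 8 measured genes, 1 was at least 1.5-fold lower with phenylephrine and 6 with PAMH, beside 4.54% and 4.17% of all genes. None was 1.5-fold higher, beside 8.9% and 9.31%. Over the settings the number lower ranged from 0 to 4 with phenylephrine and from 4 to 8 with PAMH. Their median log2 ratio was -0.46 for phenylephrine and -0.91 for PAMH, beside -0.44 and -1.04 for Actg2. The smooth muscle markers had medians of 0.02 (3 genes) and -0.42 (2 genes). Among the fibroblast markers, Col3a1 and Lum were also named above as nearest to Actg2. Thy1, near the floor on the unstimulated array at 80.2, had log2 ratios of 0.53 and 0.21, the first down to -0.53 under another setting, and Col1a2 had -0.26 and -0.28. None of the 10 was below the floor on all arrays, and Pdgfra and Tcf21 were above it on the unstimulated array alone, at 104 and 78.2. The part of fibroblasts in the Actg2 ratio was not tested, and in such bulk RNA fewer cells of a type and less RNA per cell cannot be told apart.

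The remaining markers were few. Of 6 pericyte markers, 3 were above the floor on all arrays, and the sum was 777, 1018 and 1006. Its members went different ways. Cspg4 had 70.7 on the unstimulated array, below the floor, 429 with phenylephrine and 200.1 with PAMH, whereas Abcc9 had 421, 265 and 437. Of 7 skeletal muscle markers with a probe set, Myod1, Myf6, Tnnt3 and Myh4 were below the floor on all arrays, while Acta1, the skeletal actin, lay far above it. Tnni2 was above the floor on all arrays, Myog reached it on 2, and Myh1 had 959, 2283 and 2887 by the probe set named above, whose fellow sets gave other values. The summed intensity of these 7 was 1185, 2489 and 3192. Of 4 endothelial markers, 3 were below the floor on all arrays and none was above it on all, with sums of 159, 201 and 95.5. Of 6 macrophage and leukocyte markers, 3 were below the floor on all arrays, with sums of 348, 376 and 440.5.

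**Figure D5:**
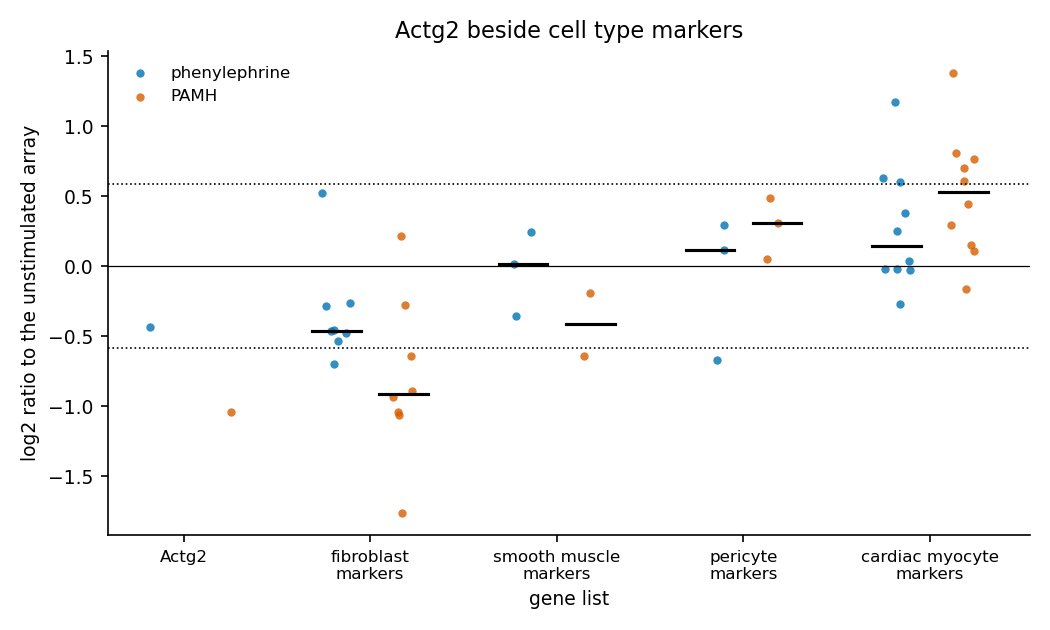
Log2 ratio to the unstimulated array with phenylephrine (blue) and PAMH (orange) of Actg2 and of markers of 4 cell types, each point 1 gene above the floor on both arrays, with the median as a black bar and 1.5-fold as dotted lines. The Actg2 values are -0.44 and -1.04, and the fibroblast medians are -0.46 and -0.91. The smooth muscle medians are 0.02 (3 genes) and -0.42 (2 genes), and the pericyte medians, of 3 genes each, are 0.12 and 0.31. The cardiac myocyte medians are 0.15 and 0.53, which range from -0.19 to 0.15 and from 0.01 to 0.53 over the settings tried.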

How the data were processed

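The authors deposited 1 signal intensity per probe set and array, on a linear scale, for 15923 probe sets. The software behind the intensities is not given in the sources used here. After trimming 2% at each end, the mean deposited intensity was 250.1 on each of the 3 arrays. Control probe sets (57) were set aside, and each array was multiplied by 1 factor (0.937 unstimulated, 1.02 phenylephrine, 1.04 PAMH) to equal medians. Platform symbols were updated by gene identifier, and 12748 of 12783 were found in a GRCr8 gene table. A gene is represented by its brightest probe set by mean signal. With 1 array a group there is no test, and the number of arrays limits precision. The ratio code was checked on simulated data that lacked the higher ratios of bright genes seen on these arrays. That check therefore does not cover them. The text names all member probe sets, the 3 nearest genes to each, every paralog and the 3 genes of each list furthest from 0. Srf, Mrtfa, Rock1 and the cell type markers in the text were named after their values were seen. The members and lists were chosen with earlier results of these data known. Alternatives were 4 scalings, 3 floors, an offset of 50 and 2 probe set rules. Python 3.11.15, numpy 2.4.6, pandas 2.3.3, R 4.3.3 and limma 3.58.1 were used.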

Additional observations from a re-analysis of the deposited data

How the results depend on the processing

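The count of genes at least 1.5-fold higher (5 of 6 with phenylephrine, 4 with PAMH, 0 between the compounds) was the same under all 10 alternatives. Under the 3 floors and 2 probe set rules this was fixed in advance, so only the scalings and the offset could change it. The share of all genes at least 1.5-fold higher ranged from 5.98% to 14.1% with phenylephrine. With PAMH it ranged from 5.33% to 14.3%, and between the compounds from 0.956% to 8.82%. No ratio of a measured gene past 1.5-fold changed sign. Of 180 alternative values of single genes, 173 moved by less than the SD between probe sets and 7 by more. All of these 7 were Acta1 or Tagln after quantile normalization or cyclic loess. The 173 include every value under the floors and probe set rules, which was fixed in advance. Under these normalizations the count at least 2-fold higher went from 4 to 3 with phenylephrine and from 4 to 2 with PAMH, and on the deposited values from 4 to 3 with phenylephrine. The cause was not tested. No paired analysis was possible because each group had 1 array.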
